A study of Homo sapiens with 5 samples.

Results

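Collagens and laminins are the main chains from which cells build extracellular matrix, and they were examined in MDA-MB231, an established human breast cancer cell line of the triple-negative type, split by how firmly the cells held to their substrate. Members were all gene rows of the count table whose symbol is that of a numbered collagen alpha chain (COL, a number, A and a number) or of a laminin alpha, beta or gamma chain (LAMA, LAMB or LAMC with 1 digit). The rule found 56 of 25382 genes, 44 collagen chains and 12 laminin chains. Cells from a mixed culture grown in DMEM with serum were exposed to shear stress, and total RNA was sequenced from 3 libraries of weakly adherent cells (6, 12 and 15 March) and 2 libraries of strongly adherent cells (6 and 15 March). Both groups were the same unmodified line, with no added agent stated, and the labels do not say whether the libraries came from separate cultures, so p-values measure the spread between these libraries only.

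Collagens are secreted or membrane-bound proteins in which alpha chains wind into a triple helix. Fibrillar collagens form cables, type IV collagen forms the sheet-like network of basement membranes, and other classes link, anchor or decorate these structures. Laminins are trimers of an alpha, a beta and a gamma chain that polymerise on the cell surface, where integrins and dystroglycan bind mainly the alpha chain. Cells hold to both families through these receptors, and tumour cells meet laminins and type IV collagen when they cross a basement membrane.

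The labelled cell type was checked against marker genes fixed for the purpose. VIM, CD44, EGFR, AXL and CAV1, which are high in this line, were all present, with a summed level of 6371 to 6564 CPM (gene counts relative to library size, scaled by the TMM factors of edgeR) in weakly and 6862 to 7031 in strongly adherent libraries. Of the luminal epithelial markers, the hormone receptor genes ESR1 and PGR had no read in any library, while GATA3 (12.4 to 14.0 CPM), EPCAM (19.4 to 25.8 CPM) and CDH1 (1.18 to 2.07 CPM) were detected. That list summed to 35.6 to 39.5 CPM in weakly and 35.5 to 35.9 CPM in strongly adherent libraries. Fibroblast markers (PDGFRA, PDGFRB, DCN, LUM and FAP), a list relevant to collagens, summed to 3.18 to 4.86 CPM in weakly and 3.91 to 4.80 CPM in strongly adherent cells, with DCN at 0. Endothelial markers summed to 3.83 to 4.77 and 3.44 to 4.13 CPM with CDH5 at 1 read in all, and leukocyte markers to 1.28 to 1.95 and 2.09 to 2.31 CPM with CD3E at 0. The summed line and leukocyte markers did not overlap between the groups, and their part in the results below was not tested. Libraries held 19630386 to 21707459 gene counts, of which the 56 genes took 0.327% to 0.381%.

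Of the 56 chains, 33 passed the filter on low counts and were tested, 23 collagens and 10 laminins. The other 23 were nearly silent. Among them 9 collagens had no read in any library: COL2A1, the cartilage collagen, and COL10A1, COL19A1, COL22A1, COL23A1, COL25A1, COL26A1, COL6A5 and COL6A6. The remaining 14 had at most 42 reads over the 5 libraries together, and COL3A1, the partner of collagen I in most connective tissue, had 2 to 5 reads per library. Of these 14, COL8A2 and COL20A1 held the most, with 6 to 11 and 3 to 14 reads per library.

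The levels of the expressed chains were compared per kilobase of transcript length, because reads scale with length. The transcript taken was the one with the longest coding sequence. LAMB3, the beta chain of the laminin of hemidesmosomes, was the most abundant chain at 127 CPM per kb over the 5 libraries. COL6A1 (51.6), LAMC1 (45.9), LAMB2 (37.5), COL5A1 (36.9), LAMB1 (36.7) and COL18A1 (31.8 CPM per kb) were also high. The collagen I chains were low, with COL1A1 at 1.63 and COL1A2 at 1.20 CPM per kb. Among the chains described here, laminin beta and gamma chains, COL6A1 and COL5A1 thus stood highest per kb, and the collagen I chains far lower. Other matrix genes were not ranked beside them.

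**Figure D1:**
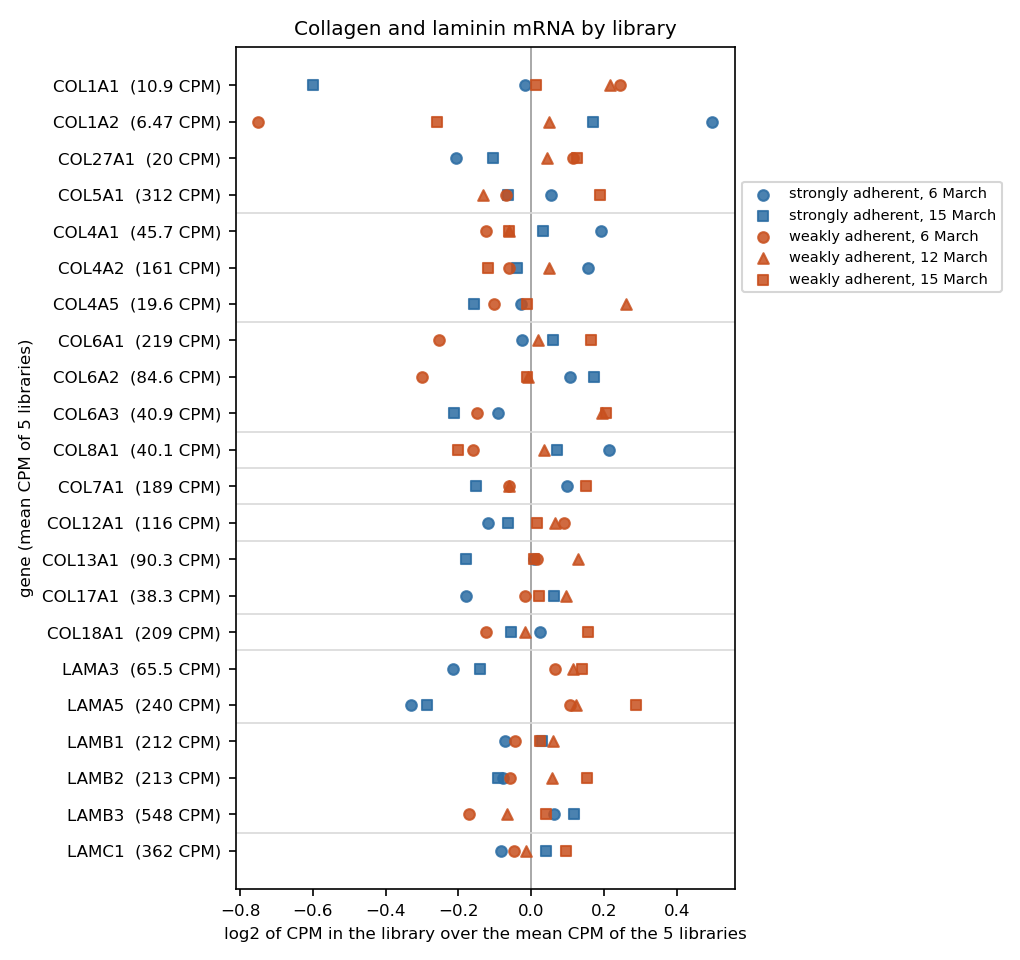
Level of described chains averaging 10 CPM or more, and of COL1A2, in each of the 5 libraries. The x axis gives the log2 of the library's CPM over the mean CPM of the 5 libraries, colours the adhesion group and symbols the date; numbers beside the genes are mean CPM. For LAMA5 and LAMA3 the weakly adherent libraries all lie to the right of the strongly adherent ones, and for COL1A2 all to the left.

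Promoter sequence is shown for the laminin alpha chains LAMA5, the only chain called between the groups, and LAMA3, for LAMB3, the most abundant chain, and for the collagen IV pair. Of the 56 members, 41 had a promoter in the RefSeq table (GRCh38.p14, 250 bases before to 50 bases from the annotated start, 55 windows in all). COL1A1, COL1A2, COL6A1 and COL8A1 are not in that table. Each sequence runs 5′ to 3′ along the gene, and capitals mark every match, on either strand, to the GC box GGGCGG, the CCAAT box CCAAT, the TATA box TATAAA, the TEAD motif GGAATG or the AP-1 motif TGANTCA.
LAMA5 lies at chr20:62367263-62367562 on the minus strand, LAMA3 at chr18:23872770-23873069 on the plus strand and LAMB3 at chr1:209651325-209651624 on the minus strand, the window of its 3 that held an AP-1 match.
LAMA5: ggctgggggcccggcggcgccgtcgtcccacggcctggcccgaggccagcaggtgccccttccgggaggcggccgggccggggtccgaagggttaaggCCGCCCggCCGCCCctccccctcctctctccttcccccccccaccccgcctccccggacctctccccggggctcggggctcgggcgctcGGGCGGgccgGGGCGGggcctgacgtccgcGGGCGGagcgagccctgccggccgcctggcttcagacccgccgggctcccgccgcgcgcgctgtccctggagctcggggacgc
LAMA3: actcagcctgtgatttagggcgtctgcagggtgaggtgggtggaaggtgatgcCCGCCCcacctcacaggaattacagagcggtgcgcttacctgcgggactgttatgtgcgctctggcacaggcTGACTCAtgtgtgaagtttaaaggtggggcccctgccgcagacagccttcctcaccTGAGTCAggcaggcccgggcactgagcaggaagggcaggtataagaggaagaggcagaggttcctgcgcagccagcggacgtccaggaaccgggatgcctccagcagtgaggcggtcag
LAMB3: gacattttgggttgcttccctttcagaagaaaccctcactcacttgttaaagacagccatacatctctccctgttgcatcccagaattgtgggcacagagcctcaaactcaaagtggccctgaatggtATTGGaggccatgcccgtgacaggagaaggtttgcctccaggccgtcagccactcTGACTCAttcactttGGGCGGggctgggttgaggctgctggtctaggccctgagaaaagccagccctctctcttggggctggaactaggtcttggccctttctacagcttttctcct
The LAMA5 window was 82.7% G and C and held 5 GC boxes and none of the other motifs. LAMA3 held 2 AP-1 matches and 1 GC box at 61.7% G and C. LAMB3 held 1 AP-1 match, 1 GC box and 1 CCAAT box at 53.7% G and C. AP-1 matches were present in 3 of the 55 member windows and in 7.71% of 35116 promoters of all genes. GC boxes were present in 32 of 55 windows against 45.0% of all promoters, CCAAT boxes in 16 against 34.6%, TATA boxes in 8 against 11.5% and TEAD motifs in 4 against 14.0%. LAMA3 is known to encode a short and a long chain from separate starts, and a count per gene does not tell which start these cells used.

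COL4A1 and COL4A2, which encode the chains of the common collagen IV trimer, lie head to head on opposite strands. COL4A1 lies at chr13:110307108-110307407 on the minus strand and COL4A2 at chr13:110307034-110307333 on the plus strand.
COL4A1: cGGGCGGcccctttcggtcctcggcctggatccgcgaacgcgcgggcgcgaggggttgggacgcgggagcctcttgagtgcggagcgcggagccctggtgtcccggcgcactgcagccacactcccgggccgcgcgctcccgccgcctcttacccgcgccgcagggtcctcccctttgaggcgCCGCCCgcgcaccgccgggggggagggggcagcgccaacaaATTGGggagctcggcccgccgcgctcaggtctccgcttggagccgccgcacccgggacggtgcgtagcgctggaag
COL4A2: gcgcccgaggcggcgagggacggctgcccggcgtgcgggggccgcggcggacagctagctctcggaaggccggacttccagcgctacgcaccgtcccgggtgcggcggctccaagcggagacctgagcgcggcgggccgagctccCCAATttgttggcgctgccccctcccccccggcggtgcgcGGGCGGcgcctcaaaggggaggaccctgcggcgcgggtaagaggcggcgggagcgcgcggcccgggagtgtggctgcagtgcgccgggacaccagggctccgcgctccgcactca
Their annotated starts are 127 bases apart and the windows share 226 bases, so the CCAAT box and 1 GC box seen in both are the same bases read from either side.

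LAMA5 was the only chain that changed between the groups at an adjusted p under 0.05 in edgeR's quasi-likelihood test. It was higher in weakly adherent cells, and 0 of the 33 tested chains were lower, against 1.77% of 13297 tested genes higher and 0.918% lower. The Wald test of DESeq2 also called 1 chain higher and 0 lower. Without adjustment 8 of 33 chains had p under 0.05, against a smaller share of all tested genes (1889 of 13297). The median log2 fold change (weakly minus strongly adherent) was 0.034 over the 33 chains and -0.00054 over all tested genes, with 20 chains above and 13 below 0. In bulk RNA, fewer cells of one kind and less RNA per cell cannot be told apart, here or in any value below.

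All 3 weakly adherent libraries exceeded both strongly adherent ones for 6 of 33 chains (LAMA5, LAMA3, LAMB2, COL1A1, COL12A1 and COL27A1), against 15.5% of all tested genes. They were all lower for 5 chains (COL1A2, COL4A1, COL6A2, COL8A1 and LAMB3), against 14.5%. The ratio within the 6 March pair and that within the 15 March pair had the same sign for 20 of 33 chains (60.6%) and for 62.9% of all tested genes. In a fit with the date as a block, 3 chains were higher (LAMA5, LAMA3 and COL1A1) and 4 lower (COL1A2, COL8A1 and COL6A2 among them), where 6.20% and 5.28% of all tested genes were called. With the date as a random effect in limma-voom, 3 were higher and 3 lower (5.13% and 3.99% of all genes). The fixed block keeps 1 residual degree of freedom and gives no weight to the 12 March library.

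**Figure D2:**
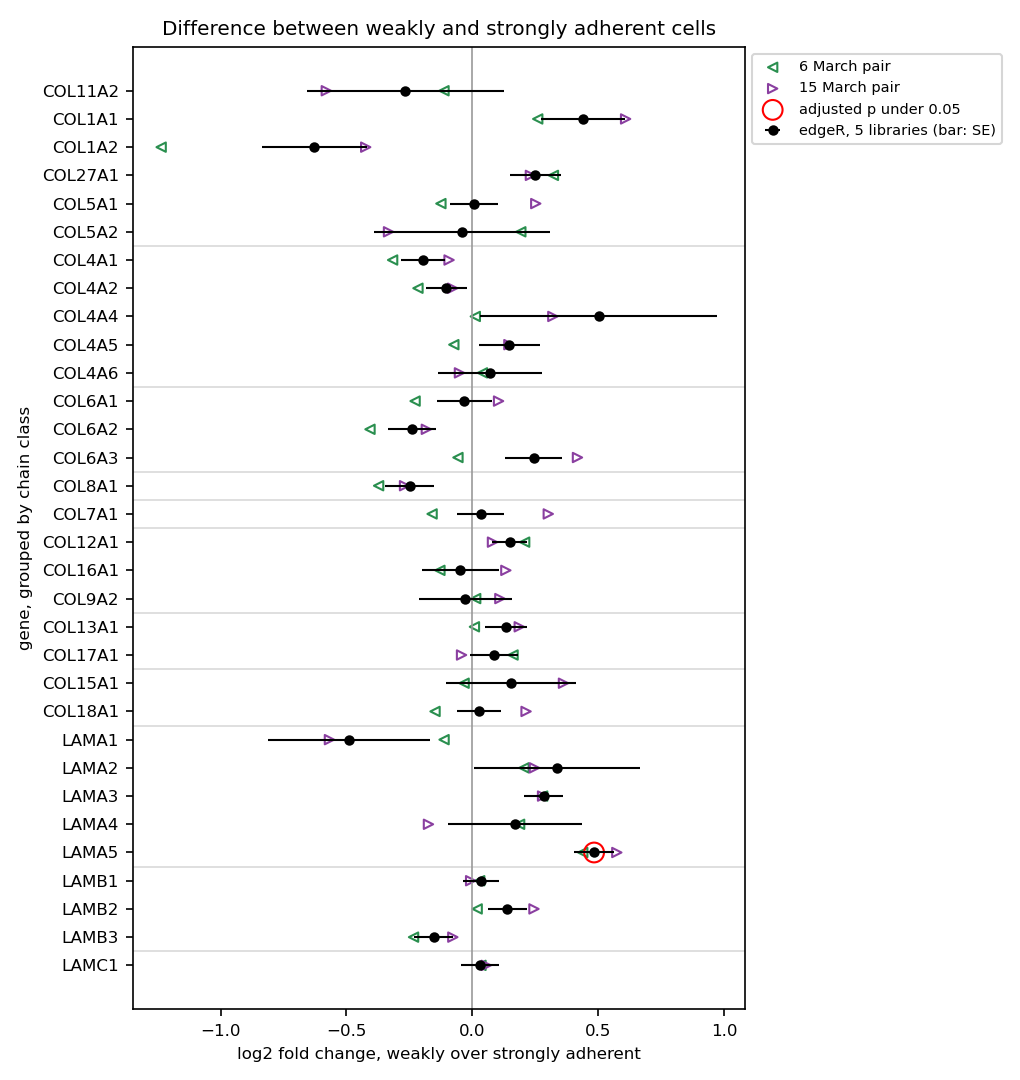
Log2 fold change of 32 of the 33 tested chains, weakly over strongly adherent, grouped by chain class. Black points and bars are the edgeR estimate over 5 libraries and its standard error, open triangles the ratios within the 6 March and the 15 March pair, and the red ring marks the chain with an adjusted p under 0.05. Only LAMA5 is ringed, and the 2 pairs lie on opposite sides of 0 for several collagens.

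Laminin alpha chains carry the receptor-binding domains of the trimer. LAMA5, the alpha chain of a widely expressed basement membrane laminin, stood at 191 and 197 CPM in the strongly adherent libraries of 6 and 15 March. In weakly adherent cells it stood at 259 (6 March), 262 (12 March) and 293 CPM (15 March). The groups did not overlap, and the lowest weakly adherent library lay well above both strongly adherent ones. The mean was 194 ± 4.19 CPM (SD, n = 2) in strongly and 271 ± 19.1 CPM (SD, n = 3) in weakly adherent cells. LAMA5 thus rose by 0.48 on the log2 scale (SE 0.078, adjusted p = 0.00528), with ratios of 0.44 on 6 March and 0.57 on 15 March. Leaving out the 6 March library of strongly adherent cells gave 0.46 at an adjusted p of 0.0694. Once each library's trend over coding length was taken out, LAMA5 was at 0.0051 (adjusted p = 0.995).

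LAMA3, the alpha chain that pairs with LAMB3 in hemidesmosomes, read 56.5 and 59.4 CPM in strongly and 68.5, 70.9 and 72.1 CPM in weakly adherent libraries. Here too the groups did not overlap, and the pairs gave nearly equal ratios of 0.28 on each date. The log2 fold change of 0.28 (SE 0.077) did not pass (adjusted p = 0.0838), and with the date block it did (0.28, adjusted p = 0.0024). With the coding length trend removed it was -0.14 (adjusted p = 0.593). That fit took the length of the longest LAMA3 coding sequence, and which start these cells used is not known. The other alpha chains, LAMA1, LAMA2 and LAMA4, stayed between 0.682 and 2.05 CPM in every library. Their log2 fold changes were -0.49, 0.34 and 0.17 (adjusted p = 0.58, 0.76 and 0.88). Standard errors were 0.27 to 0.33 on the log2 scale, so changes of the size seen in LAMA5 were not detectable in these chains. Summed over the 5 alpha chains, the level was 251 and 261 CPM in strongly and 331, 337 and 369 CPM in weakly adherent libraries. LAMA5 made up most of that sum.

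None of the beta and gamma chains described here passed the test. LAMB3 read 572 and 594 CPM in strongly and 487, 523 and 563 CPM in weakly adherent libraries, the opposite order to LAMA3, and its log2 fold change of -0.15 (SE 0.079) did not pass (adjusted p = 0.420).

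LAMB1 and LAMC1, which pair with LAMA5, had fold changes near 0 and overlapping groups. LAMB1 ranged from 201 to 216 CPM in strongly and from 205 to 221 CPM in weakly adherent cells (log2 fold change 0.034, adjusted p = 0.916). LAMC1 ranged from 342 to 373 CPM and from 350 to 387 CPM (0.032, adjusted p = 0.932). LAMB2, the alternative beta chain of LAMA5 trimers, read 202 and 199.9 CPM in strongly and 205, 222 and 237 CPM in weakly adherent libraries (0.14, adjusted p = 0.484). Summed CPM over the beta chains differed by -0.050 on the log2 scale against 0.43 for the alpha chains.

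Chain ratios within a library do not depend on its depth, and are given as counts of one chain over counts of the other, without a test. LAMA5 over LAMC1 was 0.559 and 0.529 in strongly and 0.740, 0.731 and 0.758 in weakly adherent libraries. LAMA3 over LAMB3 was 0.0987 and 0.100 against 0.141, 0.136 and 0.128. In each ratio the groups did not overlap, so the alpha chains stood higher in counts relative to their partners in weakly adherent cells. By themselves LAMA5, LAMA3 and LAMB3 did not overlap either, so these ratios are no independent support. LAMA5 and LAMA3 are also longer, with 11085 and 9999 coding bases against 4827 for LAMC1 and 3516 for LAMB3. Each length is that of the longest annotated coding sequence, and LAMA3 also encodes a short chain. With the coding length trend removed, log2 fold changes were 0.0051 for LAMA5 and -0.088 for LAMC1. They were -0.14 for LAMA3 and -0.20 for LAMB3. The part of length in these ratios was not tested. The ratio of the LAMA5 partners overlapped between groups: LAMB1 over LAMC1 lay at 0.580 to 0.588 and 0.556 to 0.616.

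**Figure D3:**
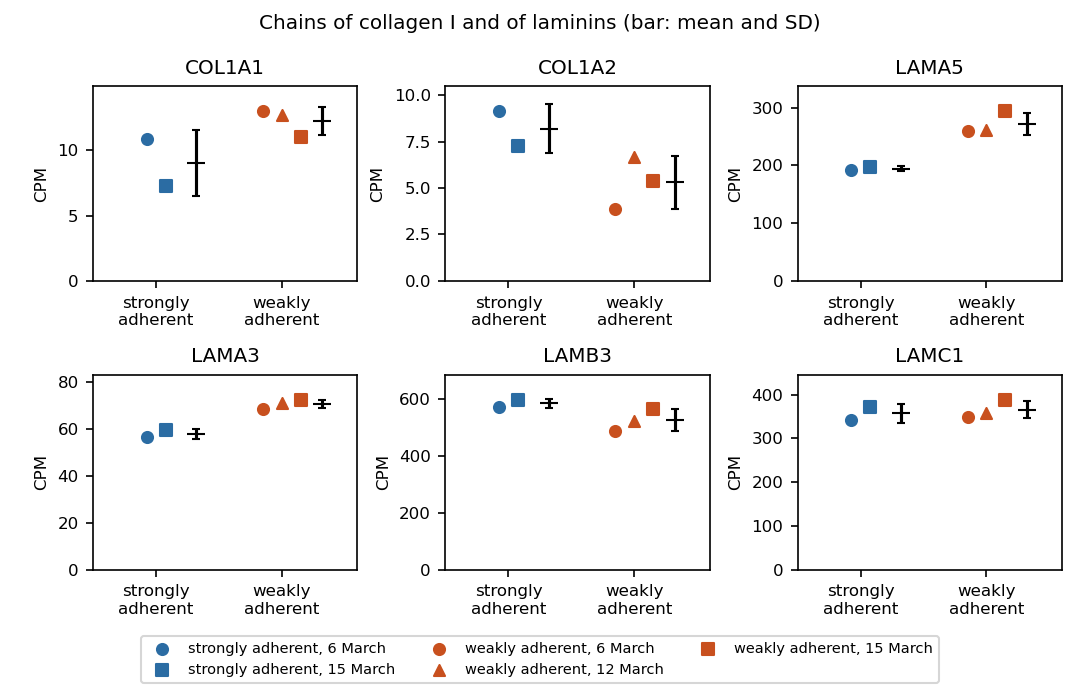
CPM of the collagen I chains, of LAMA5 with its partner LAMC1 and of LAMA3 with its partner LAMB3 in each library, with the mean and SD of each group as a black bar; each y axis starts at 0. The means of COL1A1 and COL1A2 differ in opposite directions, and that of LAMA3 is higher in weakly adherent cells while that of LAMB3 is lower. None of these chains passed the edgeR test over 5 libraries.

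Of the fibrillar collagens, 6 of 11 chains were tested and none passed. The collagen I chains, which normally assemble into one heterotrimer, had fold changes of opposite sign. COL1A1 read 10.8 and 7.22 CPM in strongly and 13.0, 12.7 and 11.0 CPM in weakly adherent libraries, a log2 fold change of 0.44 (SE 0.17, adjusted p = 0.233; 0.42 with the date block, adjusted p = 0.0144). COL1A2 read 9.13 and 7.27 CPM in strongly and 3.85, 6.69 and 5.41 CPM in weakly adherent libraries, a log2 fold change of -0.63 (SE 0.21, adjusted p = 0.174). Neither chain's groups overlapped. The COL1A1 value moved from 0.76 without the strongly adherent library of 6 March to 0.18 without that of 15 March. With the date block COL1A2 was at -0.82 (adjusted p = 1.6e-05), with ratios of -1.24 on 6 March and -0.42 on 15 March. These values rest on 159 to 273 reads of COL1A1 and 81 to 194 reads of COL1A2 per library.

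The count ratio of COL1A1 over COL1A2 was 1.19 and 0.994 in strongly and 3.37, 1.90 and 2.04 in weakly adherent cells. The ratio was highest in the weakly adherent library of 6 March, where COL1A2 was lowest. COL5A1, a regulator of fibril assembly and the most abundant fibrillar chain, ranged from 299 to 325 CPM in strongly and from 285 to 356 CPM in weakly adherent libraries (log2 fold change 0.0056, adjusted p = 0.993). Its partner COL5A2 had 0.659 to 1.27 CPM, so COL5A1 counts exceeded those of COL5A2 by 235-fold to 493-fold. COL27A1, a fibrillar collagen of cartilage, read 17.3 and 18.6 against 21.7, 20.6 and 21.8 CPM (0.25, SE 0.10, adjusted p = 0.262).

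Among type IV collagens, 5 of 6 chains were tested and none passed. COL4A1 read 52.2 and 46.7 CPM in strongly and 41.9, 43.8 and 43.8 CPM in weakly adherent libraries (log2 fold change -0.20, SE 0.086, adjusted p = 0.322). COL4A2 read 179.8 and 157 against 155, 167 and 149 CPM (-0.10, SE 0.082, adjusted p = 0.680). The groups were separate for COL4A1 and overlapped for COL4A2. Leaving out the 6 March library of strongly adherent cells gave -0.12 for COL4A1 and -0.0036 for COL4A2. Although the genes share their promoter region, COL4A1 held 0.258 to 0.292 of the reads per kilobase of COL4A2 in every library, with overlapping groups. COL4A5, a chain of another collagen IV trimer, ranged from 17.6 to 19.2 and from 18.3 to 23.5 CPM (0.15, adjusted p = 0.698).

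Type VI collagen forms beaded filaments from COL6A1, COL6A2 and a long alpha chain, here COL6A3. COL6A2 read 91.1 and 95.3 CPM in strongly and 68.7, 84.1 and 84.0 CPM in weakly adherent libraries, with no overlap (log2 fold change -0.24, SE 0.094, adjusted p = 0.247; -0.29 with the date block, adjusted p = 0.000634; -0.15 without the weakly adherent library of 6 March). COL6A1 read 215 and 228 against 184, 222 and 245 CPM (-0.031, adjusted p = 0.959). COL6A3 read 38.4 and 35.3 against 36.9, 46.8 and 47.2 CPM (0.24, SE 0.11, adjusted p = 0.358). In counts, COL6A1 over COL6A2 was 2.36 and 2.39 in strongly and 2.67, 2.63 and 2.92 in weakly adherent libraries. COL6A3 over COL6A2 was 0.421 and 0.370 against 0.537, 0.556 and 0.562. COL6A1 and COL6A2 have 3084 and 3057 coding bases, and COL6A3 has 9531. With the coding length trend removed, COL6A1 was at -0.054, COL6A2 at -0.26 and COL6A3 at -0.16. Neither ratio was tested, nor was the part of length in them.

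COL8A1, a short network-forming collagen of vessel walls and corneal membranes, read 46.5 and 42.1 CPM in strongly and 35.9, 41.1 and 34.9 CPM in weakly adherent libraries. The groups did not overlap, though the weakly adherent library of 12 March came close to the strongly adherent one of 15 March. Its log2 fold change was -0.25 (SE 0.097, adjusted p = 0.247), and -0.32 with the date block (adjusted p = 0.00173). COL7A1, the anchoring fibril collagen, ranged from 170.3 to 203 CPM in strongly and from 182 to 209.9 CPM in weakly adherent libraries (0.034, adjusted p = 0.941).

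Of the FACIT collagens, which sit on fibril surfaces, 3 of 10 were tested. COL12A1, the abundant one, read 107 and 111 against 124, 122 and 117 CPM, separate by group (log2 fold change 0.15, SE 0.071, adjusted p = 0.374). The transmembrane collagens COL13A1 (0.13, adjusted p = 0.540) and COL17A1, the hemidesmosome collagen (0.085, adjusted p = 0.806), overlapped between groups, at 79.8 to 98.6 and 33.9 to 41.0 CPM over the 5 libraries. The multiplexins, basement membrane collagens with a cleavable end, gave 0.026 for COL18A1 (192 to 234 CPM, adjusted p = 0.956) and 0.16 for COL15A1 (1.43 to 2.00 CPM, adjusted p = 0.887). None of these classes held a called chain.

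Between the dates, chains were called about as often as all tested genes. In the 4 libraries of 6 and 15 March, with adhesion as a covariate, 2 of 33 chains were higher on 15 March (COL6A1 among them) and 1 lower (COL1A1), against 6.74% and 2.55% of 13249 tested genes. COL6A1 had a log2 difference of 0.25 (adjusted p = 0.00639) and COL1A1 of -0.40 (adjusted p = 0.0295). This edgeR fit keeps 1 residual degree of freedom. With the Wald test of DESeq2 the counts were 1 and 0. What the dates stand for beyond their day is not stated in the labels.

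Coding length moved with the fold change, and collagen and laminin genes are long. Over the 12224 tested genes with a known coding length, Spearman's rho between length and log2 fold change was 0.155, and over the 33 chains it was 0.456 (0.314 in 23 collagens, 0.709 in 10 laminins). These are descriptions across genes measured in the same 5 libraries. Median log2 fold changes of all genes climbed from -0.0095 up to 4 kb to 0.11 at 4 to 6 kb, 0.21 at 6 to 8 kb, 0.41 at 8 to 10 kb and 0.72 above 10 kb. In the last class 42 of 78 genes were called higher, LAMA5 among them, and in the 8 to 10 kb class 38 of 76 were. The median was -0.15 for the 7 chains up to 4 kb, 0.034 for the 19 chains at 4 to 6 kb and 0.20 for the 6 chains at 8 to 10 kb.

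Most chains were on the low side of their length class. In those classes 6 of 7, 12 of 19, 6 of 6 and 1 of 1 chains lay below the median of all genes in the class. The classes are broad: the first holds all genes up to 4 kb and the last all above 10 kb. LAMA5, the chain in the last class, was at 0.0051 with the trend removed. LAMA3 was classed by its longest coding sequence. With the length trend removed, the median of the 33 chains was -0.12 and 0 were called in either direction (0.940% and 1.05% of all genes). With the trend removed and the date block, 0 were higher and 9 lower (COL1A2, COL8A1, COL6A2, COL4A1, COL4A2, COL7A1, COL12A1 and COL6A3 among them), against 4.47% and 5.23% of all genes. The part of length in the differences was not tested otherwise. COL1A1 and COL1A2 are of nearly equal length (4392 and 4098 coding bases), and with the trend removed they were at 0.35 (adjusted p = 0.376) and -0.70 (adjusted p = 0.0805).

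**Figure D4:**
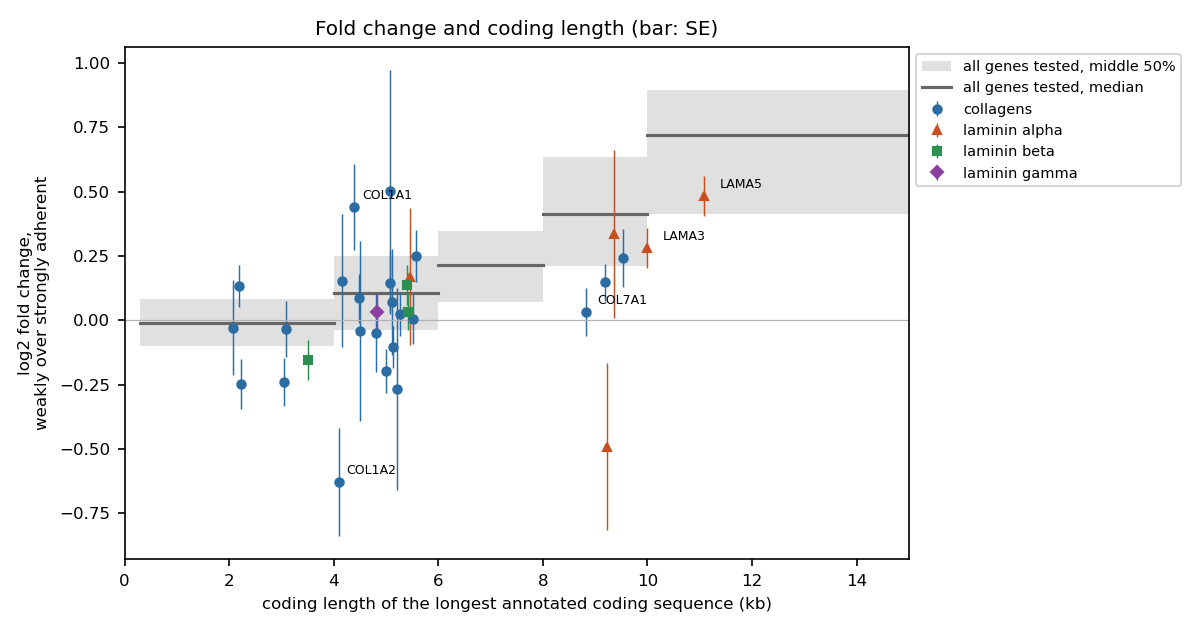
Log2 fold change of 32 of the 33 tested chains (points, with SE) against the length of the longest annotated coding sequence. Grey boxes and lines give the middle 50% and the median of all tested genes in classes of coding length, the last of which covers all genes above 10 kb. LAMA5 lies below the median of its class, and COL1A1 and COL1A2 lie on opposite sides of theirs.

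Of 37 listed enzymes and chaperones that fold, trim and cross-link collagen, 33 were tested and 0 passed in either direction by edgeR, with 4 at unadjusted p under 0.05 (1889 of the 13297 genes), 0 by DESeq2's Wald test, and a median log2 fold change of -0.046. LEPREL1, a collagen prolyl 3-hydroxylase, had the smallest p. It read 45.4 and 40.0 CPM in strongly and 33.7, 36.9 and 31.4 CPM in weakly adherent libraries (-0.33, SE 0.099, adjusted p = 0.118). P4HA3, a subunit of the prolyl 4-hydroxylase, read 0.847 and 0.727 against 1.24, 1.38 and 1.41 CPM (0.77, SE 0.29, adjusted p = 0.235). With the date block 3 of the 33 genes were lower, where 5.28% of all tested genes were: LEPREL1 (-0.39, adjusted p = 8.16e-05), PLOD2, a lysyl hydroxylase (-0.36, adjusted p = 1.7e-05), and LOX, the lysyl oxidase that cross-links collagen (-0.33, adjusted p = 6.45e-05).

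Of 15 other basement membrane genes 8 were tested. FRAS1 was called higher and 0 were lower, against 1.77% and 0.918% of all tested genes. FRAS1, a matrix protein under embryonic epithelia, read 21.6 and 22.8 CPM in strongly and 38.2, 31.5 and 35.5 CPM in weakly adherent libraries (log2 fold change 0.66, SE 0.10, adjusted p = 0.00458). The call held with each library left out in turn, the highest adjusted p being 0.047. FRAS1 has a coding length of 12036 bases, and with the length trend removed it was at 0.14 (adjusted p = 0.685). HSPG2, the heparan sulphate proteoglycan perlecan with 13173 coding bases, was at 0.11 (adjusted p = 0.714), and at -0.47 with the trend removed (adjusted p = 0.00606). With the trend removed 1.05% of all tested genes were called lower. With the date block TINAGL1, a laminin-binding matrix protein, was lower (-0.23, adjusted p = 0.00689), where 5.28% of all tested genes were.

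Receptors for collagen and laminin were tested for 13 of 17 listed genes, and 0 passed in either direction by edgeR or by DESeq2's Wald test. At unadjusted p under 0.05 were 2 of 13 receptors, a share near that of all tested genes (1889 of 13297). Those of smallest p were ITGA2 and ITGA10, alpha subunits of collagen-binding integrins. ITGA2 read 231 and 265 CPM in strongly and 263, 311 and 309.9 CPM in weakly adherent libraries (0.25, SE 0.091, adjusted p = 0.216; 0.21 with the date block, adjusted p = 0.016, where 6.20% of all genes were called higher). ITGA10 read 1.69 and 1.64 against 1.90, 2.40 and 3.27 CPM (0.60, SE 0.27, adjusted p = 0.330). The median over the 13 receptors was 0.027.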

How the data were processed

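The deposited table gives raw read counts per gene symbol for 5 libraries (TruSeq Stranded RNA, 50 bp single-end, per the labels). The authors also deposited log2 values, which equal log2(count / size factor + 1) as checked on the file. Per the submitters' processing notes, the tools were DESeq2, HTSeq, STAR, FastQC and cutadapt and the build hg19. Which annotation and strand setting served for counting is not given in the sources used here. Reads of a gene and of one that overlaps it therefore cannot be told apart. HTSeq's 5 summary rows were left out, reads outside genes being 7.96% to 9.84% of uniquely aligned reads.

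Groups follow the adhesion label. All 13297 genes that passed filterByExpr were fitted with edgeR 4.0.16 in R 4.3.3 (TMM, robust quasi-likelihood F test, Benjamini-Hochberg adjusted p under 0.05 over all of them). Log2 fold changes are weakly minus strongly adherent. Standard errors were derived from the F statistic. The biological coefficient of variation was 7.91% and 3 residual degrees of freedom were left. Groups are given as mean ± SD of CPM. Replicates differed by more than sampling noise (7.56 to 12.7 chi-square units per degree of freedom).

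Libraries of the same date were taken as pairs, as dated in the titles. Deviations of paired libraries from their group's mean correlated at 0.34 (6 March) and 0.20 (15 March), and those of the 12 March library at -0.16 and 0.16. With 2 strongly adherent libraries these values mirror each other. Alternatives were DESeq2 1.42.0 size factors and Wald test, limma-voom and limma (3.58.1) on the authors' log2 values, other filters, the date as a fixed or random block, the trend with coding length (natural spline, 5 degrees of freedom, GENCODE 29, 91.9% of tested genes matched) as an offset, and leaving out each library. In simulated data of 13297 genes the weakly against strongly adherent test recovered 72.2% of 1.5-fold and 89.0% of 2-fold changes. Of its calls, 10.4% were unchanged genes. The simulated counts held no date effect and no trend with coding length, so these rates may not hold for the libraries here.

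The members and gene lists were chosen with earlier results of these data known. Described are called chains, tested chains of at least 10 CPM, the chain of smallest p in each class, the COL4A1 and COL4A2 pair and, from each list, called genes or the 2 of smallest p; genes named for other fits were chosen after their values were seen. No p was computed over a list. The values of 1 chain and of 1 marker gene are not reported here, although both enter the counts and sums.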

Additional observations from a re-analysis of the deposited data

Results flagged for a closer look

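For 9 described chains the weakly adherent library stood above the strongly adherent one on one shared date and below it on the other. Over the 33 tested chains the ratios of both dates had the same sign for 60.6%, near the 62.9% of all tested genes. Each date holds 1 pair, so the difference between dates was not tested. The log2 ratio was negative on 6 March and positive on 15 March for 7 collagens: COL6A3 (-0.057 and 0.417), COL7A1 (-0.160 and 0.301), COL15A1 (-0.033 and 0.362), COL5A1 (-0.125 and 0.252), COL18A1 (-0.148 and 0.213), COL6A1 (-0.228 and 0.104) and COL4A5 (-0.074 and 0.145). It was positive on 6 March and negative on 15 March for COL17A1 (0.162 and -0.043) and LAMB1 (0.029 and -0.0069). Over the 33 tested chains the median ratio was -0.033 on 6 March and 0.10 on 15 March, against -0.0058 and 0.0056 over all tested genes.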

How the results depend on the processing

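DESeq2's size factors, its Wald test, limma-voom, limma on the authors' log2 values and both other filters kept the direction and the side of the threshold of all 23 described chains, and the counts of chains called (1 higher, 0 lower). Exceptions were the dates, where the Wald test called 1 chain higher and 0 lower, and the collagen assembly genes, of which 1 was lower with no filter on low counts. Over all genes the median shift from those size factors was -0.0036 (log2). In the pairing by date, the block gave 3 chains higher and 4 lower, where 6.20% and 5.28% of all tested genes were called. As a random block it gave 3 and 3, where 5.13% and 3.99% of all tested genes were called. Either block gave 3 assembly genes lower, 1 basement membrane partner lower and 1 receptor higher, and no described chain changed direction. These counts include calls gained with 1 residual degree of freedom.

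With the coding length trend removed, 0 chains and 0 basement membrane partners were higher, 1 partner was lower and the median of the chains was -0.12. Over all tested genes 0.940% were higher and 1.05% lower. With the date as a block as well, 0 chains were higher and 9 lower, against 4.47% and 5.23% of all tested genes. In that fit 0 partners were higher and 2 lower, 3 assembly genes were lower, and the median of the chains was -0.15. Signs then reversed, in the order trend alone and trend with block, for COL12A1 (-0.23 and -0.26), COL17A1 (-0.012 and -0.045), COL18A1 (-0.12 and -0.12), COL5A1 (-0.16 and -0.11), COL6A3 (-0.16 and -0.23), COL7A1 (-0.33 and -0.31), LAMA3 (-0.14 and -0.17), LAMB1 (-0.12 and -0.15), LAMB2 (-0.019 and -0.030) and LAMC1 (-0.088 and -0.079), and for COL4A5 with the block (-0.10). For LAMA3 the trend was taken at the length of its longest coding sequence. The cause of these reversals was not tested.

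Leaving out each library in turn, 0 to 1 chain was higher, the 0 coming without the strongly adherent library of 6 March. Log2 fold changes crossed 0 for COL17A1 (-0.032 to 0.22), LAMB1 (-0.018 to 0.092), LAMC1 (-0.031 to 0.099), COL18A1 (-0.047 to 0.089), COL5A1 (-0.091 to 0.067), COL6A1 (-0.12 to 0.076) and COL7A1 (-0.083 to 0.16). Other values moved by over 1.5 times from the estimate over all 5 libraries without changing sign. These were COL1A1 (0.18 to 0.76), COL4A1 (-0.27 to -0.12), COL4A2 (-0.19 to -0.0036) and COL4A5 (0.035 to 0.22). So did COL6A2 (-0.29 to -0.15), COL13A1 (0.047 to 0.23), COL15A1 (0.0054 to 0.26), LAMB2 (0.091 to 0.19) and LAMB3 (-0.20 to -0.10). Smaller moves from that estimate included COL1A2 (-0.82 to -0.44), COL6A3 (0.19 to 0.35), COL8A1 (-0.32 to -0.18) and COL27A1 (0.20 to 0.31). Where 1 strongly adherent library was left, its spread was taken from the weakly adherent ones. With 2 and 3 libraries a group, chains under a few CPM allow no statement about changes of the size seen in LAMA5.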
